A study of Rattus norvegicus with 12 samples.

Results

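The genes described here handle taurine and the sulfur amino acids in rat liver. They are Slc6a6, Cdo1, Csad, Cth, Cbs, Bhmt, Mat1a, Gnmt, Suox and Mpst, and their probe sets were taken by single gene symbol from the platform annotation of the arrays. All 10 genes were measured, by 11 of the 15866 probe sets tested, with 2 probe sets for Slc6a6 and 1 for each of the other 9 genes. The genes were chosen by function with their measured differences between D-penicillamine and vehicle rats on these arrays already known. Those differences are therefore given as a description and not as a test of the set. The samples are livers of 12 male rats of the inbred Brown Norway strain, with a body weight of 150 to 170 g, each liver on its own Affymetrix expression array. The 4 vehicle rats received water, and the 8 treated rats received D-penicillamine in water, 150 mg/kg in 1 mL, once by oral gavage. Both groups carry a sacrifice time of 6 h in the labels. Values are RMA values on the log2 scale, so a difference of 1 is a doubling of signal, and every difference below is D-penicillamine minus vehicle. Probe sets bind their targets with unequal strength, so levels are compared between rats and not between genes.

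Methionine that is not built into protein is activated to S-adenosylmethionine, which gives up its methyl group and leaves homocysteine. Homocysteine is either methylated back to methionine or passed through cystathionine to cysteine, and cysteine is used for protein and glutathione or oxidised to taurine and sulfate. The rat liver makes taurine from cysteine, takes more up from the blood, and joins much of it to bile acids. D-penicillamine, itself a thiol, resembles cysteine, chelates copper and reacts with pyridoxal phosphate, the cofactor of the enzymes encoded by Cbs, Cth and Csad.

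The arrays matched their label as liver. Of 8 hepatocyte markers 7 were measured, and each lay above 89.0% or more of all probe sets, with albumin (Alb) at 14.88 in vehicle and 14.85 in treated rats. Array medians lay between 6.30 and 6.35. A pair of arrays stood apart from their groups. Vehicle rat 3 had the highest 3' minus 5' signal of the Gapdh and beta-actin controls, a measure of RNA integrity, at 1.19 against 0.43 to 0.61 in the other 11 rats. D-penicillamine rat 4 lay farthest from the rest of its group, at a root mean square distance of 0.209 on the log2 scale against 0.111 to 0.157 in the other treated rats. Both touch the genes described here. Rat 4 was the lowest treated rat in 8 of the 11 probe sets, and it was the lowest in 25.1% of all probe sets. Vehicle rat 3 was the highest vehicle rat in 8 of the 11, and the highest in 27.6% of all. The difference of each of the 11 probe sets is therefore also given without both rats. Differences of other genes are not given in that way. The 4 vehicle arrays were scanned before the first treated array, so scan order and treatment cannot be told apart.

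Slc6a6, which encodes the sodium- and chloride-dependent taurine transporter of the plasma membrane, lay lower after D-penicillamine and had the largest difference of the 10 genes. Its 2 probe sets are 1368778_at and 1374531_at. Its promoter, 250 bases before to 50 bases after the start of transcription, is shown because the gene carries the main difference, and that of Mat1a because it is the member with the largest difference in the other direction. The sequences are those of RefSeq on the GRCr8 assembly, chr4:125752252-125752551 on the plus strand for Slc6a6 and chr16:17016918-17017217 on the plus strand for Mat1a, read 5′ to 3′. Capitals mark every match, on either strand, to the TATA box (TATAAA), the GC box (GGGCGG), the CCAAT box (CCAAT), the E-box (CACGTG) or the core of the antioxidant response element (TGACNNNGC).
Slc6a6: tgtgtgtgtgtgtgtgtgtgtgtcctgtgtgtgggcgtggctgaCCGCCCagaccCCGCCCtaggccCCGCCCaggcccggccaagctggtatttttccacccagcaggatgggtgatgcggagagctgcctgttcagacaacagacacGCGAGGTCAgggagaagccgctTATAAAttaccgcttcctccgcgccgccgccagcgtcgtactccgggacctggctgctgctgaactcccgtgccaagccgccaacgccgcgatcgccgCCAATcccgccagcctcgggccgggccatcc
Mat1a: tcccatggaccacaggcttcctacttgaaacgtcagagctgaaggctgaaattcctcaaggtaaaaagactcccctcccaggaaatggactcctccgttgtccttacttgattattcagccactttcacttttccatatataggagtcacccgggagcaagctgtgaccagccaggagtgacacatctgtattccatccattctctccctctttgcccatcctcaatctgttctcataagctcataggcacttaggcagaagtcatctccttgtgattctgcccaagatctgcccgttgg

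The Slc6a6 window held 1 TATA box, 3 GC boxes, 1 CCAAT box and 1 antioxidant core, and none of these matches overlapped another. The Mat1a window held none of the 5 motifs. Its content of G and C was 48.7%, against 66.3% for Slc6a6 and a median of 51.7% over all 33469 promoters of the same length. Among those promoters 14.2% held the TATA box, 33.1% the GC box, 37.5% the CCAAT box, 6.42% the E-box and 12.1% the antioxidant core. Promoters were found for 9 of the 10 genes, of which 2 held the TATA box, 5 the GC box, 6 the CCAAT box, 2 the E-box and 2 the antioxidant core. A match of letters is not a binding site, and factor binding was not measured in these rats.

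On probe set 1374531_at the Slc6a6 values of the 4 vehicle rats were 8.63, 8.75, 9.14 and 8.45, in the order of their numbers. The 8 treated rats ran from 7.29 to 8.64 with a median of 8.13. All 8 treated rats lay under the vehicle mean and 7 under the lowest vehicle rat, so the groups overlapped only through treated rat 6. Group means were 8.74 ± 0.29 (SD, n = 4) and 8.02 ± 0.44 (SD, n = 8), a difference of -0.72 (SE 0.20, 95% interval -1.16 to -0.28), which is 1.65-fold lower. On probe set 1368778_at the vehicle rats were at 7.86, 7.99, 8.19 and 7.51, and the treated rats ran from 6.69 to 7.81 with a median of 7.19. There too 7 of 8 treated rats lay under the lowest vehicle rat, with rat 6 as the exception. The means were 7.89 ± 0.29 (SD, n = 4) and 7.15 ± 0.38 (SD, n = 8), a difference of -0.73 (SE 0.18, interval -1.12 to -0.34), or 1.66-fold lower. The probe sets ordered the treated rats alike at the ends, with rats 4 and 7 lowest and rat 6 highest on each. They read the same RNA, so they do not count as separate evidence.

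**Figure D1:**
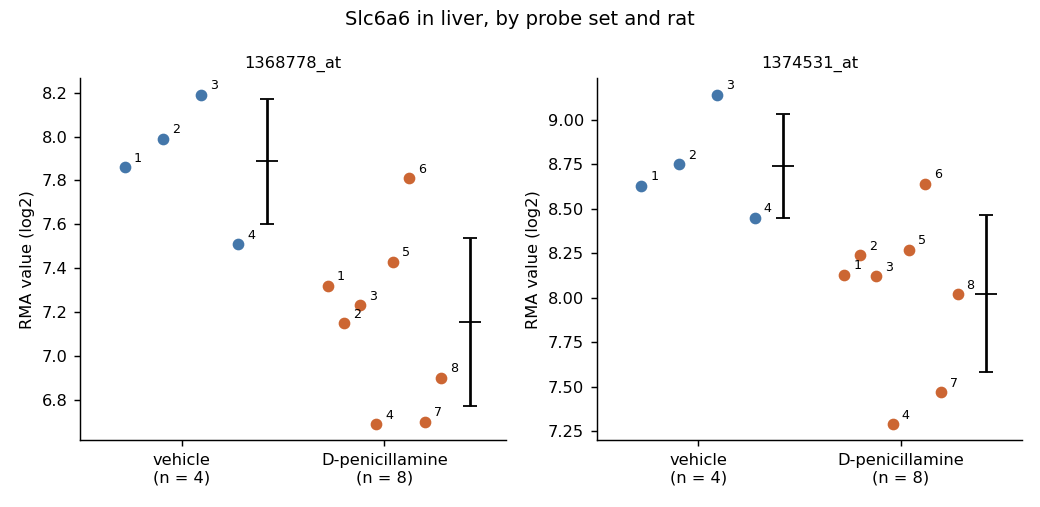
RMA values (log2) of the 2 Slc6a6 probe sets in every rat; points are rats with their numbers, and bars are group means with SD (n = 4 vehicle, n = 8 D-penicillamine). Treated rat 6 is the only treated rat above the lowest vehicle rat on either probe set, and treated rats 4 and 7 are the lowest.

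Only 13 of the 15866 probe sets had a larger absolute difference than 1374531_at, and 1368778_at was among them. Since the genes were chosen with this contrast known, that rank, like the order among the members below, is only a description. Neither probe set passed the threshold of 0.05 after Benjamini-Hochberg adjustment over all probe sets in limma, which called 0 probe sets (0% of those tested, while 6.16% had an unadjusted p under 0.05). Without vehicle rat 3, the highest vehicle rat, the differences were -0.63 on 1368778_at and -0.59 on 1374531_at. Without treated rat 4, the lowest treated rat, they were -0.67 and -0.62. Without both rats they were -0.57 and -0.48, still the 2 largest absolute differences among the members; in the same data Mat1a was at 0.36.

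Liver is a mixture of cells, and in bulk tissue fewer cells of a type and less RNA per cell cannot be told apart. Mean levels of the marker lists of other cells differed by -0.07 to 0.11 between the groups. The hepatocyte list differed by 0.06, with 4 of 7 markers higher and Hnf4a at 0.34. Of the endothelial markers 0 of 4 were higher after treatment, with list means of 7.39 to 7.82 in vehicle and 7.39 to 7.56 in treated rats. Of the stellate cell markers 1 of 7 was higher, with list means of 6.25 to 6.41 and 6.15 to 6.44, and single markers reached -0.20 (Lum) and -0.18 (Acta2). Of the Kupffer cell markers 6 of 6 were higher, with list means of 8.56 to 8.82 and 8.66 to 8.87. The neutrophil markers had the largest list difference, with 2 of 2 higher and list means of 4.54 to 4.72 in vehicle and 4.59 to 5.20 in treated rats. Of the erythroid markers 3 of 3 were higher, with list means of 9.10 to 9.93 and 9.11 to 10.04. Lymphocyte markers (3 of 4 higher) had list means of 4.70 to 4.85 and 4.75 to 4.91, and cholangiocyte markers (2 of 4 higher) of 5.88 to 6.19 and 5.96 to 6.15. Lum, Cd3e (lymphocyte) and S100a8 (neutrophil) lie near the bottom of the signal range, above 5.53%, 2.21% and 1.70% of all probe sets. RMA gives no value of 0, so absence of a marker cannot be read from these data. The part of cell composition in the Slc6a6 difference was not tested.

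Cdo1 and Csad carry cysteine to taurine inside the liver cell, and neither showed a difference of the size seen for the transporter. Cdo1, which encodes the dioxygenase that oxidises cysteine to cysteine sulfinate, was at 12.59, 12.85, 12.79 and 12.86 in the vehicle rats. Treated rats ran from 12.54 to 12.96 with a median of 12.80, so the groups overlapped fully. The difference was 0.03 (SE 0.07), and its interval of -0.12 to 0.18 does not reach the differences measured for Slc6a6. Without vehicle rat 3 and treated rat 4 it was 0.07. Csad, which encodes the decarboxylase that turns cysteine sulfinate into hypotaurine, varied far more between rats. Its vehicle values were 9.90, 10.17, 10.55 and 9.85, and treated values ran from 9.48 to 10.57 with a median of 9.95. The highest Csad value was that of treated rat 7, which had the second lowest Slc6a6 value. The Csad difference was -0.17 (SE 0.17, interval -0.54 to 0.20). It was -0.03 without vehicle rat 3 and changed sign, to 0.02, without that rat and treated rat 4.

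Cbs and Cth encode the enzymes of transsulfuration, cystathionine beta-synthase and cystathionine gamma-lyase, which pass the sulfur of homocysteine to cysteine. Cbs was slightly lower after D-penicillamine, at 10.39 ± 0.11 (SD, n = 4) in vehicle and 10.25 ± 0.12 (SD, n = 8) in treated rats. All 8 treated rats lay under the vehicle mean, but 6 of them lay within the range of the vehicle rats, which were at 10.23, 10.40, 10.50 and 10.43. The difference was -0.14 (SE 0.07, interval -0.285 to 0.005, which barely includes 0) and was -0.07 without vehicle rat 3 and treated rat 4. Cth had the smallest spread of the 10 genes among the vehicle rats (SD 0.08, n = 4), which were at 11.38, 11.31, 11.36 and 11.20. Treated rat 4 stood at 10.51, and the other 7 treated rats lay between 11.07 and 11.39. The Cth difference of -0.12 (SE 0.13, interval -0.40 to 0.16) was -0.02 without treated rat 4 and -0.007 without vehicle rat 3 as well.

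Among the genes of the methionine cycle Mat1a lay higher after D-penicillamine, and the differences of Gnmt and Bhmt were smaller than the SD within either group. Mat1a encodes the S-adenosylmethionine synthetase of adult liver. Its vehicle rats were at 11.57, 11.50, 11.79 and 11.56, and treated rats ran from 11.58 to 12.12 with a median of 11.88. Of the 8 treated rats 6 lay above the highest vehicle rat, and rats 3 and 4 lay within the vehicle range. The means were 11.61 ± 0.13 (SD, n = 4) and 11.86 ± 0.16 (SD, n = 8), a difference of 0.26 (SE 0.08, interval 0.08 to 0.43), which is 1.19-fold higher. Without vehicle rat 3 and treated rat 4 it was 0.36.

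Gnmt, whose enzyme methylates glycine and so disposes of spare S-adenosylmethionine, was at 12.44, 12.12, 12.68 and 12.20 in vehicle rats. Treated rats ran from 12.17 to 12.63 with a median of 12.51, all within the vehicle range. Its difference was 0.08 (SE 0.11, interval -0.16 to 0.32), 0.23 without vehicle rat 3 and treated rat 4, and 0.001 without vehicle rat 2. Bhmt, whose enzyme remethylates homocysteine with betaine, was at 12.02, 11.27, 12.00 and 11.75 in vehicle rats and ran from 10.96 to 12.01 in treated rats, with a median of 11.80. Single rats set its spread, vehicle rat 2 being low in one group and treated rat 4 in the other. The Bhmt difference was -0.04 (SE 0.17, interval -0.41 to 0.34), 0.07 without treated rat 4, 0.15 without that rat and vehicle rat 3, and -0.20 without vehicle rat 2, so its sign depended on the rats included.

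Suox and Mpst act at the end of cysteine breakdown and showed the narrowest ranges among treated rats. Suox encodes the sulfite oxidase of mitochondria, which forms sulfate. It was at 8.65, 8.57, 8.82 and 8.68 in vehicle rats and ran from 8.54 to 8.77 in treated rats, with a median of 8.64. Its difference was -0.04 (SE 0.06, interval -0.16 to 0.07), and 0.02 without vehicle rat 3 and treated rat 4. Mpst encodes mercaptopyruvate sulfurtransferase, a source of persulfide sulfur. It was at 10.66, 10.45, 10.75 and 10.46 in vehicle rats and ran from 10.46 to 10.74 in treated rats, with a median of 10.53, for a difference of -0.03 (SE 0.07, interval -0.17 to 0.11), and 0.04 without those rats. For both genes the sign thus changed, and with all rats the interval lies within a 1.5-fold change in either direction.

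**Figure D2:**
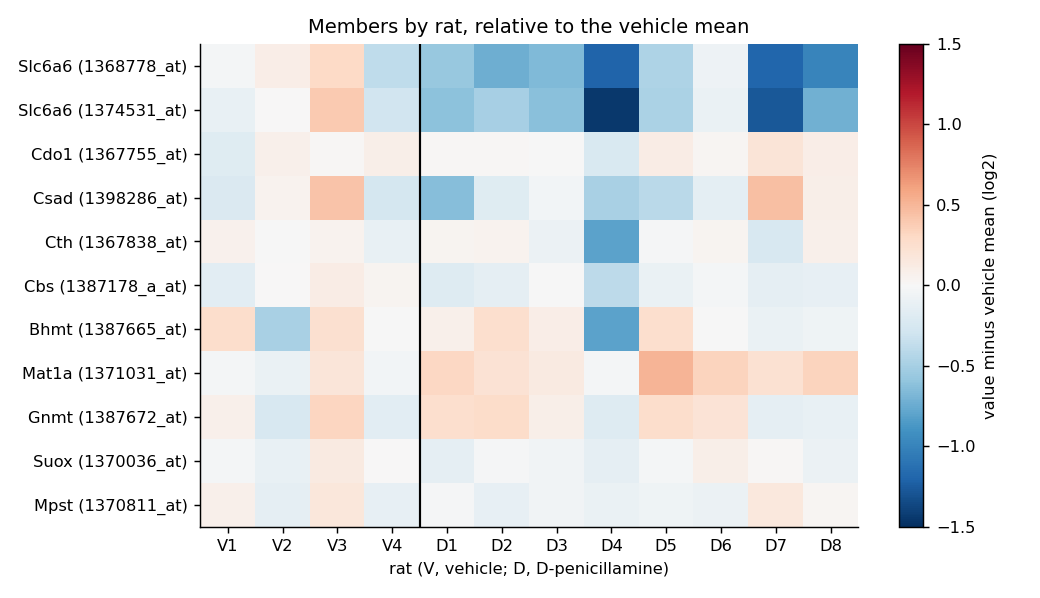
Each cell is the value of 1 probe set in 1 rat minus the vehicle mean of that probe set (log2; blue lower, red higher), with vehicle rats V1 to V4 left of the line and D-penicillamine rats D1 to D8 right of it. Slc6a6 is lower in all 8 treated rats, Mat1a is higher in 7 of 8, and D4 is low in Cth and Bhmt as well.

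Over the 11 probe sets 8 had a negative and 3 a positive difference, against 51.4% and 48.6% of all probe sets. The median difference was -0.04, and -0.0025 over all probe sets. In limma 0 of the 11 passed an adjusted p of 0.05, and 0% of all probe sets did. An unadjusted p under 0.05 was reached by 3 of the 11, against 6.16% of all. Of these 2 were lower after treatment, both of Slc6a6, against 3.48% of all, and 1 was higher, that of Mat1a, against 2.68% of all. No member had groups that did not overlap, which was the case for 0.574% of all probe sets. Since the set was chosen with this contrast known, nothing is read from these shares. For 9 of the 11, all except those of Slc6a6, the interval allowed less than a 1.5-fold change either way.

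**Figure D3:**
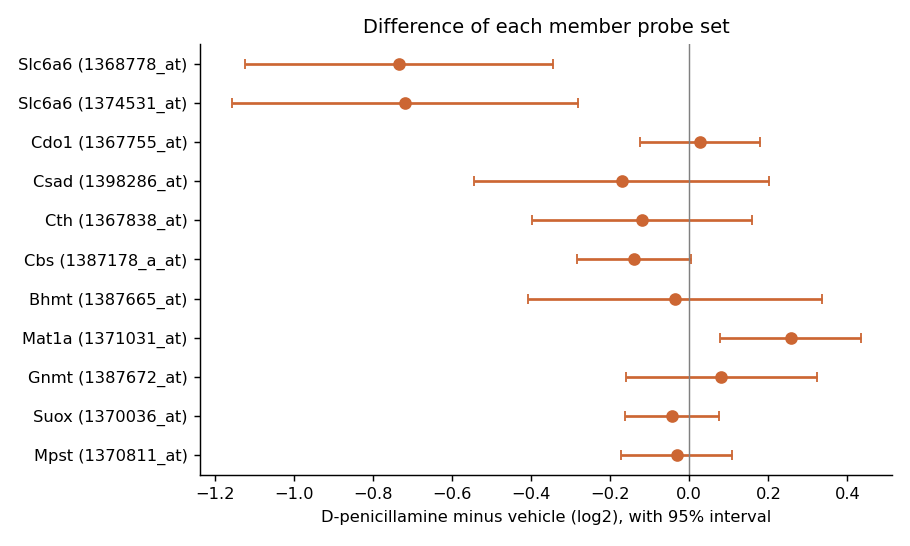
D-penicillamine minus vehicle (log2) for each of the 11 probe sets, with 95% intervals from limma (n = 8 and 4). The intervals of both Slc6a6 probe sets (-1.12 to -0.34 and -1.16 to -0.28) lie below 0 and that of Mat1a (0.08 to 0.43) above it, and the other 8 include 0.

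Whether the genes varied together from rat to rat was asked within the treated group, where the contrast with vehicle plays no part. Each gene entered by its probe set of highest mean, and all 45 pairs were compared over the 8 treated rats. Pearson's r was positive in 40 pairs, with a median of 0.53. With exact permutation over the 40320 orderings of the rats, two-sided, 0 of the 45 pairs passed the 0.05 threshold after adjustment by Benjamini and Hochberg, and 8 had an unadjusted p under 0.05. These values depended on rat 4, without which 21 pairs were positive and the median r was -0.02. The 45 pairs share 10 genes, and the shares among pairs of other genes on these arrays were not computed. Nothing is therefore read from the counts of positive pairs or of pairs under the unadjusted threshold.

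The pair with the smallest p was Bhmt and Gnmt, at r = 0.77 (exact permutation p = 0.00188, adjusted p = 0.0815, n = 8) and Spearman's rho = 0.92 (exact permutation p = 0.0027, adjusted p = 0.121). It differed from most pairs in that r was 0.80 without rat 4 and 0.77 without the 2 rats farthest from the median of Bhmt. Slc6a6 and Gnmt gave r = 0.83 (exact permutation p = 0.0036, adjusted p = 0.0815, n = 8) and rho = 0.83 (exact permutation p = 0.0154, adjusted p = 0.346). That r was 0.74 without rat 4 and 0.50 without the 2 rats farthest from the median of Slc6a6. Cth and Bhmt had the highest r of all, 0.91 (exact permutation p = 0.0311, adjusted p = 0.198, n = 8), with rho = 0.41 (exact permutation p = 0.310, adjusted p = 0.707), and it rested on rat 4, without which r was 0.33. Leaving out rat 6 let 3 pairs pass, Slc6a6 with Bhmt (r = 0.89), Slc6a6 with Gnmt (r = 0.86) and Bhmt with Gnmt (r = 0.79).

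**Figure D4:**
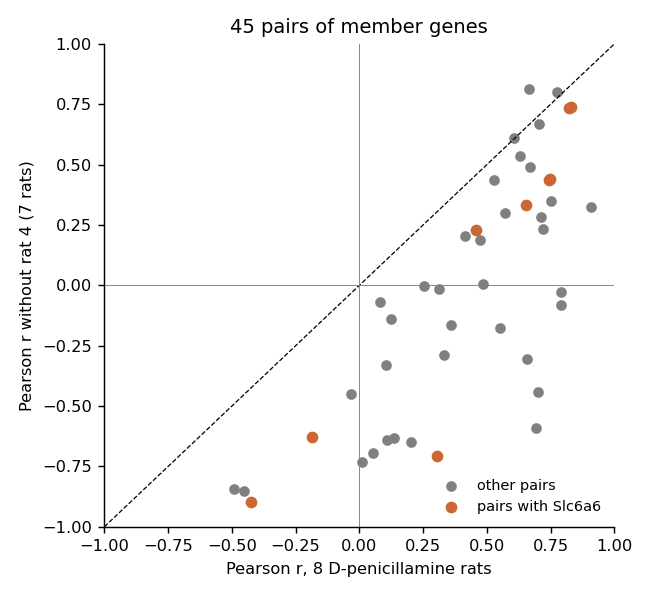
Pearson's r for each of the 45 pairs of genes over the 8 D-penicillamine rats (horizontal) and over 7 of them without rat 4 (vertical); the dashed line marks equal values. Most points lie under the line, and the median r is 0.53 with rat 4 and -0.02 without it.

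Among the genes outside the set, those most like Slc6a6 across the 8 treated rats were Pigm, Usp32, Gnpda2, Oser1 and Sec24b, taken as the highest values of Pearson's r with probe set 1374531_at over all named genes. Their r ran from 0.94 for Sec24b to 0.96 for Pigm, and from 0.91 to 0.97 without rat 4. Without the 2 rats farthest from the median of Slc6a6, r ran from 0.77 for Gnpda2 to 0.92 for Usp32. Spearman's rho over the 8 rats ran from 0.76 for Pigm to 0.95 for Gnpda2. Their own differences from vehicle ran from -0.03 for Pigm to 0.06 for Oser1. With 8 rats and many genes searched, such values describe these arrays and carry no p. Gnpda2, at 3.68 in vehicle rats, lies near the bottom of the signal range.

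The other genes of these pathways were read from 6 lists with 58 genes, of which 45 were measured. In the same limma fit 0 of 45 passed the adjusted threshold (0% of all probe sets), and 1 had an unadjusted p under 0.05 (6.16% of all), each gene entering by its probe set of highest mean. Differences were positive for 24 and negative for 21, with a median of 0.005. The methionine cycle and its methyl transfers held 10 measured genes with differences from -0.06 for Ahcyl1 to 0.08 for Mtr, the methionine synthase. Ahcy, which hydrolyses S-adenosylhomocysteine, was at -0.05 (SE 0.10), and 0.03 without treated rat 4. Gamt, the creatine-forming methyltransferase that is a large user of methyl groups, was at 0.06 (SE 0.05).

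Of the betaine and folate genes 7 were measured, between -0.08 for Mthfd1, a folate enzyme, and 0.08 for Sardh, the sarcosine dehydrogenase, whose other probe set was at 0.30 (SE 0.11, interval 0.06 to 0.54; unadjusted p = 0.0188 and adjusted p = 0.747 in limma). Aldh7a1, which oxidises betaine aldehyde, was at -0.06 (SE 0.04), and Shmt1, a serine hydroxymethyltransferase, at 0.02 (SE 0.06). In the list of cysteine breakdown, sulfur oxidation and sulfate use 6 of 10 measured genes were negative, against 51.4% of all probe sets. Papss1, which makes the activated sulfate used by sulfotransferases, was the 1 gene of the 45 with an unadjusted p under 0.05 on its probe set of highest mean. Its vehicle rats lay between 6.16 and 6.47, and the treated rats ran from 5.88 to 6.31 with a median of 6.08. All 8 treated rats lay under the vehicle mean although the ranges overlapped, and the difference was -0.27 (SE 0.08). Papss2, the other form of that enzyme, was at -0.11 (SE 0.09). Got1, a transaminase that also acts on cysteine sulfinate, was at 0.17 (SE 0.18), and 0.02 without vehicle rat 1. Fmo1, which in mice oxidises hypotaurine to taurine, was at 0.11 (SE 0.13).

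The list of cysteine and glutathione genes went both ways, with 4 of 8 measured genes higher and 4 lower. Gss, the glutathione synthetase, was at 0.13 (SE 0.06), with all 8 treated rats over the mean of the vehicle rats. All 8 also lay over the vehicle mean for Mtr, and under it for Aldh7a1 and Papss1. How many of all probe sets did so was not counted. Slc38a2, a transporter of neutral amino acids, was at 0.36 (SE 0.20), and 0.145 without vehicle rat 1. The subunits of glutamate-cysteine ligase were at -0.20 (SE 0.14) for Gclc and -0.07 (SE 0.21) for Gclm. The other Gclc probe set was at -0.06 (SE 0.18). Gclm spread from 7.84 to 9.25 in treated rats against 8.68 to 8.85 in vehicle rats. Its difference was 0.06 without treated rat 4.

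Of 6 other measured genes of taurine conjugation and transport 5 had a positive difference, against 48.6% of all probe sets. The 6 ran from -0.07 to 0.09. Baat, the enzyme that joins taurine or glycine to bile acids, was at 0.01 (SE 0.06). Slc6a13, a transporter of the same family that carries GABA and taurine, was at 0.09 (SE 0.09), with vehicle rats from 9.35 to 9.71 and treated rats from 9.34 to 9.84. Slc36a1, a proton-coupled carrier of small amino acids, was at 0.08 (SE 0.06) and Slc16a6, a carrier of the monocarboxylate family, at -0.07 (SE 0.09). The other Slc16a6 probe set was at 0.004 (SE 0.05). Slc6a6 is also known in other cells as a target of NFAT5, the factor that answers hypertonicity. Nfat5 itself was at 0.03 (SE 0.04), Akr1b1, which makes the osmolyte sorbitol, at 0.06 (SE 0.06), and Slc38a1, a carrier of neutral amino acids, at -0.02 (SE 0.06). Other probe sets of Slc38a1 were at -0.07 (SE 0.06) and 0.03 (SE 0.06). Sgk1, a kinase induced by cell shrinkage and by glucocorticoids, was at 0.65 (SE 0.42, interval -0.24 to 1.54), or 0.42 without treated rat 8, with treated rats from 7.76 to 10.52 and vehicle rats from 7.83 to 8.62. Baat and Nfat5 were named after their values were seen.

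**Figure D5:**
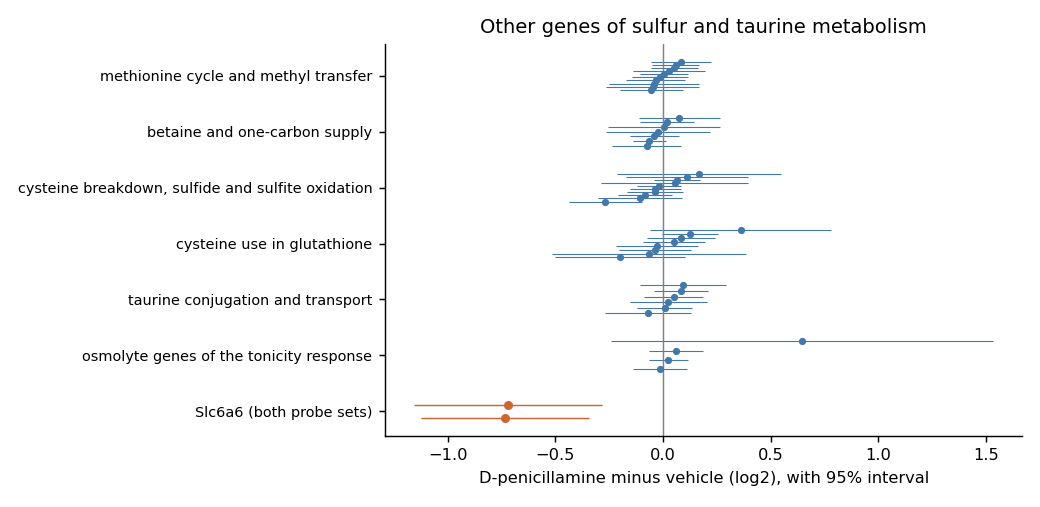
D-penicillamine minus vehicle (log2, with 95% interval) for the 45 other measured genes by list, with both Slc6a6 probe sets in the bottom row. Differences outside Slc6a6 run from -0.27 (Papss1) to 0.65 (Sgk1), and, by the probe set of highest mean of each gene, all but that of Papss1 have intervals that include 0.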

How the data were processed

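The deposited table holds log2 values for 15923 probe sets on 12 arrays. Per the submitters' processing notes they were made with RMA, which corrects background, equalises array distributions and summarises probes, so a shift of most transcripts at once cannot be seen. No version is given in the sources used here. The deposited scan records, whose other fields are text per the file headers, served only for chip lot (1), day (1) and scan order. After 57 array controls were left out, 15866 probe sets entered limma 3.58.1 in R 4.3.3 (lmFit and eBayes, group term only, two-sided, Benjamini-Hochberg over all probe sets). Of these 12783 had 1 symbol in the platform annotation, covering 10411 genes, 312 had several and 2771 none. The fit was tested on simulated data. Members, lists and alternatives were chosen with earlier results of these data known. Named beside the members were the 2 genes with the largest difference per direction in each list and the 5 most like Slc6a6. A gene with several probe sets entered the lists by that of highest mean. Pearson's and Spearman's tests enumerated all orderings of the rats. Labels call the rats individual animals. The number of arrays limits the precision.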

Additional observations from a re-analysis of the deposited data

Results flagged for a closer look

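Of 66 groups of values examined, 7 held a rat whose gap to its nearest neighbour was too large a share of the range (0.829 of it for 4 rats, 0.526 for 8). A group was 1 probe set in 1 treatment group. The 11 member probe sets and the genes named from the lists for their largest differences were examined, the latter by their probe set of highest mean. About 1 in 20 groups would be marked by chance alone if they were independent, but they share the same 12 rats. The rule was not run over all probe sets, in 25.1% of which D-penicillamine rat 4 was the lowest treated rat. The count of flags is therefore not read as a trait of these genes. In 6 of the 7 the rat was D-penicillamine rat 4, at the low end, in genes of the methionine cycle and of cysteine formation and use. Bhmt was at 10.96 with the next lowest treated rat at 11.66, and Cth at 10.51 with the next at 11.07. Ahcy was at 10.93 against 11.42, Gamt at 11.18 against 11.35, Cdo1 at 12.54 against 12.77, and Cbs at 10.00 against 10.20, the last at 0.526 of the range and so barely past the limit. Against the mean of the other 7 treated rats Cth was lower by 0.78 and Bhmt by 0.87 in rat 4 (differences of -0.78 and -0.87). Of all probe sets, 0.321% lay further down than Cth in that rat and 0.176% further down than Bhmt, and the median over all probe sets was -0.03. The 3' minus 5' control difference of rat 4 was 0.605, against 0.43 to 0.565 in the other treated rats. Its array weight in limma, 0.328, was the lowest of the 12 rats. The part of array quality in these low values was not tested. The seventh was Akr1b1 in D-penicillamine rat 7, at 7.06 with the next highest at 6.90.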

How the results depend on the processing

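No member and no pathway gene passed the adjusted threshold in limma in any of the settings tried, which were a trended robust spread, array weights, 2 further normalizations, the brighter probe sets, the 3' minus 5' covariate, the replicate block, each rat left out and vehicle rat 3 with treated rat 4 left out; for the pathway genes, averaging all probe sets of each gene was tried too. Over all 15866 probe sets, array weights called 2 and leaving out treated rat 1 called 1. The other settings fitted by probe set called 0. The Slc6a6 difference kept its sign in all 20 alternatives, between -0.86 and -0.57 on 1368778_at and between -0.82 and -0.48 on 1374531_at. With 7 of 8 treated rats under the lowest vehicle rat, leaving out 1 rat could not have changed that sign. The trended robust spread and the brighter probe sets leave the difference itself as it was. The count of kept signs is therefore no support for the difference. Mat1a stayed between 0.16 and 0.36. Among the members Cdo1, Csad, Bhmt, Suox and Mpst changed sign in some settings (2, 1, 5, 3 and 4 of 20). The values gave no clear sign that the replicate numbers shared by the groups pair the rats. Deviations of same-numbered rats correlated at 0.25, -0.16, 0.14 and -0.13. Not every rat correlated best with its own number (0 of 4 vehicle rats and 2 of 4 treated rats, numbers 1 and 3, did). Such correlations cannot exclude a pairing. With the replicate block, which drops treated rats 5 to 8, 0 members, 0 pathway genes and 0 of all 15866 probe sets passed. Slc6a6 was then at -0.79 and -0.80. Among pairs of member genes the count past the threshold ran from 0 to 3 on leaving out each treated rat. Without rat 3 the pair was Bhmt with Gnmt, and without rat 7 Cdo1 with Mat1a.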
